A study of Mus musculus with 10 samples.

Results

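Interleukin-12 (IL-12) family and interleukin-6 (IL-6) genes were read across 3 groups of sorted mouse spleen B cells. The set was 8 named genes of the 46316 in the count table: the cytokine subunits Il12a, Il12b, Il23a, Il27 and Ebi3, the cytokine Il6, and the receptor chains Il6ra and Il6st. They were chosen by name and not by measured values, and each was measured in all 10 libraries. The pBIC10 group (n = 3, 2 females and 1 male) held B220+GFP+ lymphoma cells of C57BL/6 mice of the genotype p53F/F, Blimp1F/F, IKK2castopF/stopF, Cg1Cre/+ and IL-10F/F. The pBIC group (n = 3, all females) held B220+GFP+ lymphoma cells of the same genotype without the floxed IL-10 allele. The YC group (n = 4, 3 females and 1 male) held B220+YFP+ germinal centre B cells of YFPstopF/+ Cg1Cre/+ mice, taken 10 days after a second injection of sheep red blood cells, with the first given 20 days before. All 3 groups shared the Cre allele, which is expressed from the Cγ1 immunoglobulin locus in B cells induced to switch to IgG1 and leaves its deletions in their descendants. No ages are given. A few YC label fields carry the lymphoma wording (GFP, moribund), and for those the sort given in the series description was taken.

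The cytokines of the IL-12 family are dimers that share chains. Il12a and Il12b encode the chains of IL-12, and Il23a with Il12b those of IL-23. Il27 with Ebi3 encodes IL-27, and Il12a with Ebi3 encodes IL-35, a cytokine described in regulatory T and B cells. IL-6 binds its receptor chain, encoded by Il6ra, and the pair then engages gp130, encoded by Il6st. Gp130 is also a signalling chain for IL-27, leukaemia inhibitory factor, oncostatin M and other cytokines, and these receptors signal through Janus kinases and STAT transcription factors. IL-12 and IL-27 are best known as products of macrophages and dendritic cells, while activated B cells can make IL-6 and IL-35.

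The libraries held 12.59 to 19.13 M counts. Levels are in CPM (counts per M, scaled between libraries), and 3 counts in 1 library, the level that a count of 0 there still allows, equalled 0.154 to 0.246 CPM, which covers counting error only. All 7 B cell markers were detected in every library, but 6 were lower in pBIC10 and all 7 in pBIC than in YC, with sums of 2521 to 4309 CPM in pBIC10, 1873 to 3408 CPM in pBIC and 7986 to 10145 CPM in YC. The germinal centre marker Gcsam was at 0 in 2 pBIC10 and 2 pBIC libraries. All 7 germinal centre markers were lower in both lymphoma groups than in YC. Gcsam reached at most 0.177 CPM in lymphoma libraries and had enough counts for a test only through YC. Its lower calls were therefore built in. Of all tested genes, 26.9% were lower in pBIC10 and 27.7% in pBIC than in YC. Ighv7-3 led the heavy chain variable segments in all 3 pBIC10 libraries (67.4% to 70.5% of such counts) and Ighv8-11 in all 3 pBIC libraries (51.6% to 59.1%), while each YC library had another leading segment (3.73% to 10.9%). P-values therefore measure the spread between libraries, which may share a clone within a lymphoma group. Libraries of pBIC and YC were taken by the authors from an earlier series, so in every comparison with pBIC10 the batch cannot be told apart from the genotype. Among the genes the alleles act on, Trp53 lay at 36.6 to 49.7 CPM in pBIC10, 18.3 to 53.3 CPM in pBIC and 176 to 198 CPM in YC. Prdm1, the gene of Blimp1, lay at 0.351 to 1.59 CPM in pBIC10, 5.63 to 16.3 CPM in pBIC and 16.8 to 39.6 CPM in YC. Ikbkb, the gene of IKK2, lay at 335 to 422 CPM in pBIC10, 223 to 335 CPM in pBIC and 126 to 166 CPM in YC. Il10 lay at 1.99 to 4.77 CPM in pBIC10, 6.84 to 19.4 CPM in pBIC and 4.23 to 9.98 CPM in YC, and was lower in pBIC10 than in pBIC (log2 fold change -1.88 ± 0.46, adjusted p = 0.00809); which of its exons are floxed is not given in the sources used here.

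The promoters of Il12a, Ebi3 and Il6 are shown because the first pair changed in opposite directions between the lymphoma groups and Il6 is the most studied NF-kB target of the set. Each sequence is the plus strand, 5′ to 3′, of the 250 bases before an annotated start (RefSeq, GRCm38.p6). Capitals mark motif matches. Il12a lies on chromosome 3 and has a pair of annotated starts, with windows at chr3:68690394-68690643 and chr3:68691174-68691423. Ebi3 lies on chromosome 17, with its window at chr17:55952373-55952622. Il6 lies on chromosome 5, with its window at chr5:30012864-30013113.
Il12a first start: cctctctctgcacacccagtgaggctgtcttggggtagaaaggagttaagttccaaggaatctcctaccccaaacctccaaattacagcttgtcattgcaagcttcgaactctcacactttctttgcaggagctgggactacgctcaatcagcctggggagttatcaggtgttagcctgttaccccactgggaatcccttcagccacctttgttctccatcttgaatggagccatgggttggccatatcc
Il12a second start: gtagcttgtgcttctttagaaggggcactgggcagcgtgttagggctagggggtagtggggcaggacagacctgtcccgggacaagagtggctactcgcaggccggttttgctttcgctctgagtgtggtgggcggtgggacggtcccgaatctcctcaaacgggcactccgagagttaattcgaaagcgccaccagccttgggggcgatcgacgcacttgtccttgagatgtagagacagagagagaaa
Ebi3: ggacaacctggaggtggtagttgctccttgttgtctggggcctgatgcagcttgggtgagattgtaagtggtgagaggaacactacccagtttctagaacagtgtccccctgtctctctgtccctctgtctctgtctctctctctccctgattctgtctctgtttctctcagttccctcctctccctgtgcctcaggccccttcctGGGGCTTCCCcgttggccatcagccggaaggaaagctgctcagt
Il6: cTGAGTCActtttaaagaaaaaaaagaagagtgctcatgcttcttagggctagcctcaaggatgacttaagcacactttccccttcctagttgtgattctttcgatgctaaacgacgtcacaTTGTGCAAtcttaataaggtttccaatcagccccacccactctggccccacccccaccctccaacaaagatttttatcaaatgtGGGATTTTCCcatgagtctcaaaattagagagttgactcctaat

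Both strands were searched for 5 motifs: the NF-kB consensus, the gamma-activated site TTCNNNGAA bound by STATs, the interferon-stimulated response element core GAAANNGAAA bound by interferon regulatory factors, the AP-1 site TGANTCA and the C/EBP site TTGCNNAA. Of 32851 promoter windows of the same length, 3.90% held the NF-kB motif, 7.02% the gamma-activated site, 2.98% the response element core, 6.75% the AP-1 site and 9.56% the C/EBP site. The Ebi3 window held 1 match, the NF-kB motif GGGGCTTCCC at bases -44 to -35, where -1 is the base before the start. The Il6 window held 3 matches that did not overlap: AP-1 at -249 to -243, C/EBP on the minus strand at -128 to -121 and the NF-kB motif GGGATTTTCC at -44 to -35. These letters were not found in either Il12a window, nor in the windows of Il12b, Il6ra and Il6st. A match describes the sequence and is no evidence of binding. Promoters were matched for 6 of the 8 genes. In the same build Il6ra lies on chromosome 3, Il27 on 7, Il23a on 10, Il12b on 11 and Il6st on 13.

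Of the 8 genes, 5 had enough counts to be tested: Il12a, Il27, Ebi3, Il6ra and Il6st. Il27 passed that filter only through the YC libraries, so a difference from YC was built into its being tested. Il12b, Il23a and Il6 were too low. Tests are edgeR quasi-likelihood F tests (two-sided) over 17718 genes with Benjamini-Hochberg adjustment, calls needed an adjusted p under 0.05, and log2 fold changes are given ± SE. In pBIC10 against pBIC, 3 of the 5 were called, 2 higher (Il12a and Il6st) and 1 lower (Ebi3), beside 30.7% of all tested genes called, 15.6% higher and 15.1% lower. In pBIC against YC, 3 were called, 1 higher (Il6ra) and 2 lower (Il12a and Il27), beside 54.1% of all tested genes, 26.4% higher and 27.7% lower. In pBIC10 against YC, 4 were called, 2 higher (Il12a and Il6st) and 2 lower (Il27 and Ebi3), beside 51.7% of all tested genes, 24.8% higher and 26.9% lower. With so many genes called, a count of 3 or 4 of 5 sets these genes little apart from the rest. Libraries of the groups did not overlap for 3 of the 5 in pBIC10 against pBIC (41.8% of all tested genes), for 3 in pBIC against YC (54.2%) and for all 5 in pBIC10 against YC (61%). The comparisons share libraries and are not independent of each other. The median log2 fold change of all tested genes was -0.01 between the lymphoma groups (pBIC10 over pBIC), 0.02 for pBIC over YC and 0.01 for pBIC10 over YC.

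**Figure D1:**
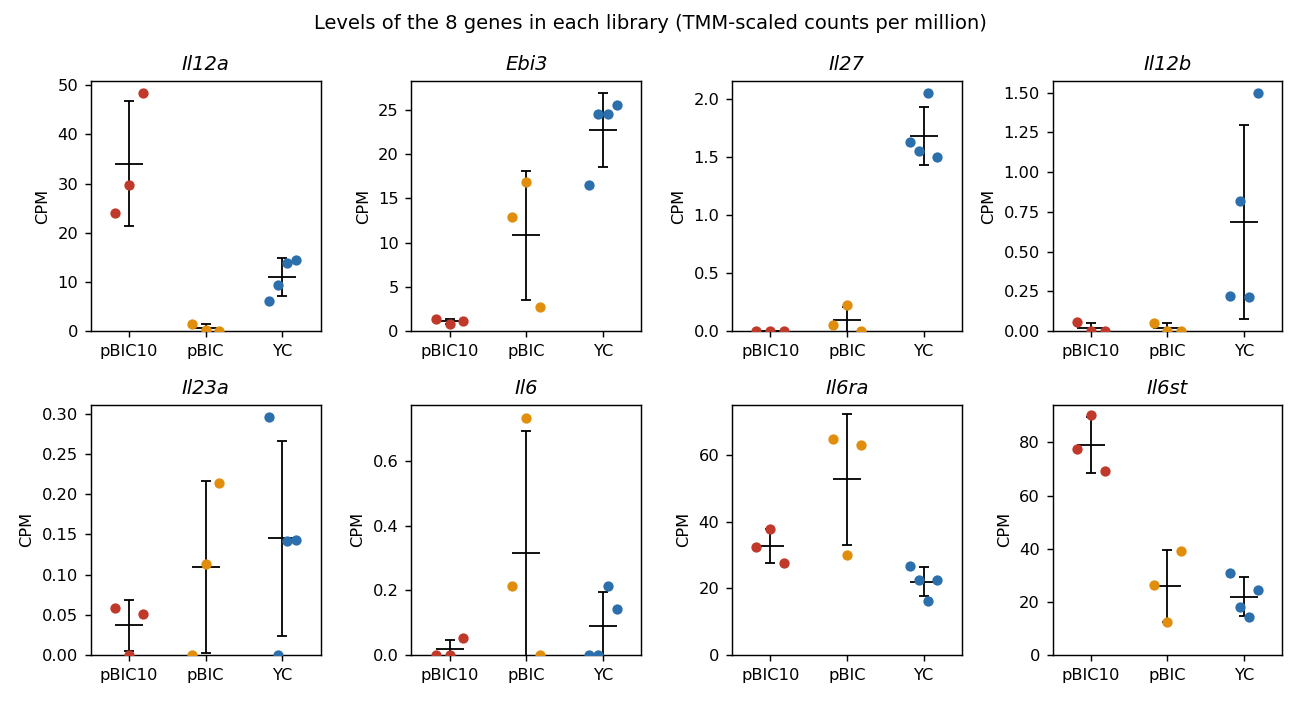
Levels of the 8 genes in CPM (vertical axes, each with its own range from 0) in the 3 pBIC10, 3 pBIC and 4 YC libraries. Points are libraries, the wide line is the mean and bars are 1 SD, cut off at 0; Il12a is highest in pBIC10 and lowest in pBIC, while Ebi3 and Il27 are highest in YC.

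Il12a, the alpha chain of IL-12 and of IL-35, ordered the 3 groups without overlap. It had 24.1, 29.6 and 48.4 CPM in pBIC10 libraries, against 1.50, 0.170 and 0.107 CPM in pBIC libraries and 6.23, 9.34, 13.9 and 14.5 CPM in YC libraries. Every pBIC10 library lay above every YC library, and every YC library above every pBIC library. Behind the pBIC values were 28, 3 and 2 counts, so most pBIC signal came from replicate 1. The pBIC10 library with the highest level was the one from a male. Il12a was higher in pBIC10 than in pBIC (log2 fold change 5.82 ± 0.74, adjusted p = 1.50e-04). It was lower in pBIC than in YC (-4.19 ± 0.69, adjusted p = 4.10e-04). Without pBIC replicate 1 these log2 fold changes became 7.88 and -6.25. In pBIC10 against YC it was higher by 1.63 ± 0.53 on the log2 scale (adjusted p = 0.0225), in all 3 pBIC10 libraries. That call was lost in 6 alternatives: DESeq2 (adjusted p = 0.0749), no filter (0.0942), females alone (0.107), without pBIC10 replicate 3 (0.0976), without YC replicate 1 (0.0535) and without YC replicate 2 (0.0639).

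Macrophage and monocyte markers were lowest in pBIC10, where Il12a was highest, and mostly low in pBIC, where Il12a was lowest. The summed level of the 11 markers was 25.3 to 31.0 CPM in pBIC10 libraries, against 127 to 170 CPM in pBIC libraries and 155 to 220 CPM in YC libraries, and Fcgr1 was at 0 in all 3 pBIC10 libraries. Most of the pBIC sum was Cd68, at 13.2 to 23.7 CPM in pBIC10, 100.3 to 116.5 CPM in pBIC and 26.8 to 32.8 CPM in YC. Others were low in both lymphoma groups, such as Csf1r at 0.871 to 1.87 CPM in pBIC10, 1.66 to 2.83 CPM in pBIC and 22.7 to 29.3 CPM in YC. Of these 11 markers, 0 were called higher and 3 lower in pBIC10 against pBIC, and 1 higher and 8 lower in pBIC against YC. In pBIC10 against YC, 0 were higher and 11 lower. Among all tested genes, 15.6% were higher and 15.1% lower in pBIC10 against pBIC. The shares were 26.4% and 27.7% in pBIC against YC, and 24.8% and 26.9% in pBIC10 against YC. Fcgr1 reached at most 0.429 CPM in lymphoma libraries, so it could pass the count filter only through YC. The part of the macrophage and monocyte markers in the Il12a differences was not tested in any of the 3 comparisons. The 8 dendritic cell markers summed to 69.8 to 133 CPM in pBIC10, 89.0 to 106 CPM in pBIC and 191 to 291 CPM in YC. Most of that sum was the chemokine receptor gene Ccr7, which activated B cells also express (58.1 to 102 CPM in pBIC10, 74.3 to 88.6 CPM in pBIC and 119 to 218 CPM in YC). In bulk libraries fewer cells of a type and less RNA per cell cannot be told apart.

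Ebi3, the beta chain of IL-27 and IL-35, had 1.42, 0.761 and 1.13 CPM in pBIC10 libraries, against 12.9, 16.8 and 2.73 CPM in pBIC libraries and 16.5, 24.5, 24.5 and 25.5 CPM in YC libraries. The pBIC10 libraries were the lowest of all, while the pBIC and YC groups overlapped. In pBIC, replicate 3 was the low library. Ebi3 was lower in pBIC10 than in pBIC (log2 fold change -3.29 ± 0.55, adjusted p = 8.61e-04). It was also lower in pBIC10 than in YC (-4.36 ± 0.56, adjusted p = 5.67e-05). In pBIC against YC the log2 fold change was -1.07 ± 0.46 and was not called (adjusted p = 0.0652). That difference was called with DESeq2 (adjusted p = 0.0319), with limma-voom (0.0210) and without pBIC replicate 2 (-1.48, adjusted p = 0.0310). The antisense gene Gm16712 overlaps Ebi3 exons and reached at most 0.424 CPM in any library.

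Il27 encodes the alpha chain of IL-27. It had 0 counts in all 3 pBIC10 libraries and 1, 4 and 0 counts in pBIC libraries, against 22, 19, 29 and 21 counts in YC libraries. In CPM the YC libraries lay at 1.50 to 2.05, above every lymphoma library. With 3 counts over the pBIC10 group as the limit, Il27 was at least 30.1-fold below its measured YC level. The exact 95% counting interval of the summed counts began at 24.0-fold lower. Il27 was also lower in pBIC than in YC (log2 fold change -4.09 ± 0.75, or -5.56 without pBIC replicate 2). Its adjusted p was 1.75e-04 in pBIC10 against YC and 9.11e-04 in pBIC against YC. Since Il27 could be tested only through its YC counts, these p-values add no support to a difference from YC. In pBIC10 against pBIC Il27 missed the threshold (adjusted p = 0.0841), which it passed once pBIC replicate 3 was left out (adjusted p = 0.0357). Apobr, on the opposite strand, overlaps Il27 exons and had 0.0513 to 0.236 CPM in pBIC10, 0.214 to 0.482 CPM in pBIC and 5.70 to 8.70 CPM in YC. Whether counting used strand is not given in the sources used here, so reads of Il27 and Apobr cannot be told apart. Of 7 dendritic cell markers tested, 5 were lower in pBIC10 than in YC and 4 in pBIC than in YC, with 0 higher. Among all tested genes 26.9% and 27.7% were lower in those comparisons. Cd209a and Clec9a reached at most 0.118 CPM in lymphoma libraries, so they could pass the count filter only through YC. The part of the dendritic cell markers and of the macrophage markers given above in the Il27 difference was not tested.

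Il12b, the chain that IL-12 and IL-23 share, had 1, 0 and 0 counts in pBIC10 libraries and 1, 0 and 0 counts in pBIC libraries, against 3, 10, 3 and 21 counts in YC libraries. Every YC library lay above every lymphoma library, yet the YC libraries spread from 0.212 to 1.50 CPM. The summed counts were 36.8-fold lower in pBIC10 than in YC (exact 95% counting interval 6.20 to 1491). In pBIC against YC they were 37.8-fold lower (6.38 to 1533). With no filter on low counts, Il12b was called lower in pBIC10 against YC (adjusted p = 0.00140) and in pBIC against YC (adjusted p = 0.00119). Its partner in IL-12, Il12a, lay at 24.1 CPM or more in those pBIC10 libraries.

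Il23a, the alpha chain of IL-23, had 1, 0 and 1 counts in pBIC10 libraries, 0, 2 and 4 counts in pBIC libraries and 4, 0, 2 and 2 counts in YC libraries. The 3 groups overlapped, and differences were not detectable at this depth. Il6 had 0, 0 and 1 counts in pBIC10 libraries and 4, 13 and 0 counts in pBIC libraries, against 0, 0, 3 and 2 counts in YC libraries. Its highest level was 0.735 CPM in pBIC replicate 2, which held 13 of the 17 counts of that group. The summed Il6 counts were 16.5-fold lower in pBIC10 than in pBIC (exact 95% counting interval 2.59 to 691). They were 3.33-fold higher in pBIC than in YC (1.18 to 11.5). These intervals leave out the spread between libraries, the groups overlapped, and in the fit with no filter Il6 was not called (adjusted p = 0.0768 in pBIC10 against pBIC and 0.254 in pBIC against YC).

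Il6ra, the ligand-binding chain of the IL-6 receptor, had 32.5, 37.8 and 27.7 CPM in pBIC10 libraries, against 65.0, 30.1 and 63.2 CPM in pBIC libraries and 26.7, 22.6, 16.1 and 22.5 CPM in YC libraries. Both lymphoma groups lay above YC without overlap, and pBIC replicate 2 lay within the pBIC10 range. Il6ra was higher in pBIC than in YC (log2 fold change 1.27 ± 0.26, adjusted p = 0.00128). In pBIC10 against YC the change of 0.57 ± 0.26 was not called (adjusted p = 0.0817). It was called with no filter (adjusted p = 0.0295), with only those groups in the fit (0.0261) and without pBIC replicate 2 (0.0169). In pBIC10 against pBIC the change of -0.69 ± 0.28 was not called (adjusted p = 0.0767). There the call was gained with no filter (adjusted p = 0.0347) and without pBIC replicate 2 (-1.01, adjusted p = 0.00595).

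Il6st, the gp130 chain, had 77.6, 90.3 and 69.1 CPM in pBIC10 libraries, against 26.3, 12.2 and 39.2 CPM in pBIC libraries and 30.8, 18.1, 14.2 and 24.5 CPM in YC libraries. The pBIC10 libraries lay above all others, and pBIC and YC overlapped. Il6st was higher in pBIC10 than in pBIC (log2 fold change 1.61 ± 0.37, adjusted p = 0.00663). It was higher in pBIC10 than in YC as well (1.85 ± 0.34, adjusted p = 7.80e-04). In pBIC against YC the change of 0.24 ± 0.35 was not called (adjusted p = 0.569).

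**Figure D2:**
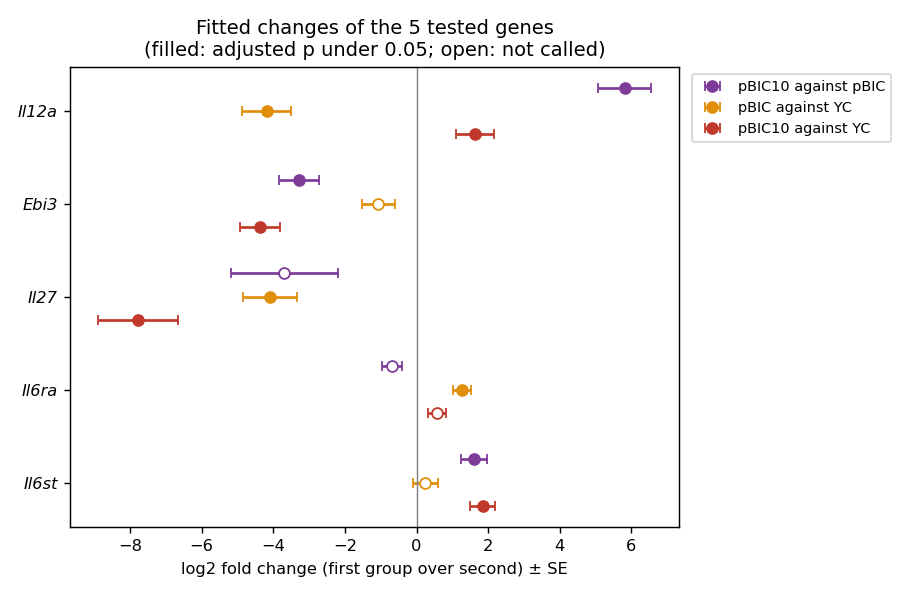
Log2 fold changes ± SE (horizontal axis) of the 5 tested genes in pBIC10 against pBIC, pBIC against YC and pBIC10 against YC; filled points had an adjusted p under 0.05. Il12a has opposite signs in pBIC10 against pBIC (5.82) and pBIC against YC (-4.19), and the Il27 estimate in pBIC10 against YC rests on a group at 0 and is no measure of size.

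Levels of different genes were compared per kilobase of exon. In pBIC10 the most abundant of the 8 was Il12a at 20.0 CPM per kb, ahead of Il6st at 7.11, Il6ra at 3.78 and Ebi3 at 0.955 CPM per kb. In pBIC it was Ebi3 at 9.37 CPM per kb, ahead of Il6ra at 6.11, Il6st at 2.34 and Il12a at 0.348 CPM per kb. That order did not hold in pBIC replicate 3, where Ebi3 had 2.37 CPM per kb, under Il6ra at 7.31 and Il6st at 3.54 CPM per kb. In YC it was Ebi3 at 19.7 CPM per kb, ahead of Il12a at 6.46, Il6ra at 2.54, Il6st at 1.97 and Il27 at 1.65 CPM per kb. In YC replicate 3, however, Il27 at 2.01 CPM per kb lay above Il6ra at 1.86 and Il6st at 1.27 CPM per kb. Il12b did not exceed a mean of 0.350 CPM per kb in any group.

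The balance of the chains that pair in a dimer or receptor was read within each library, as ratios of CPM per kb chosen after the levels were seen. Il12a over Ebi3, the chains of IL-35, ran from 11.5 to 29.1 in pBIC10 libraries, against 0.00683 to 0.0791 in pBIC libraries and 0.256 to 0.386 in YC libraries. Per kb, only in the pBIC10 libraries was Il12a the more abundant transcript of the pair, and only there was Il6st more abundant than Il6ra. For Il6ra and Il6st the order in YC depends on the exon lengths used. In CPM, Il6st exceeded Il6ra in YC replicate 1 (30.8 against 26.7 CPM) and in YC replicate 4 (24.5 against 22.5 CPM). Il6ra over Il6st ran from 0.515 to 0.538 in pBIC10 libraries, against 2.07 to 3.17 in pBIC libraries and 1.11 to 1.60 in YC libraries. Neither ratio overlapped between any groups. Since the pairs were picked with their levels known, no test is given. In the IL-27 pair, Ebi3 exceeded Il27 by 8.97 to 15.1 times in YC libraries, and Il27 was at 0 in pBIC10.

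**Figure D3:**
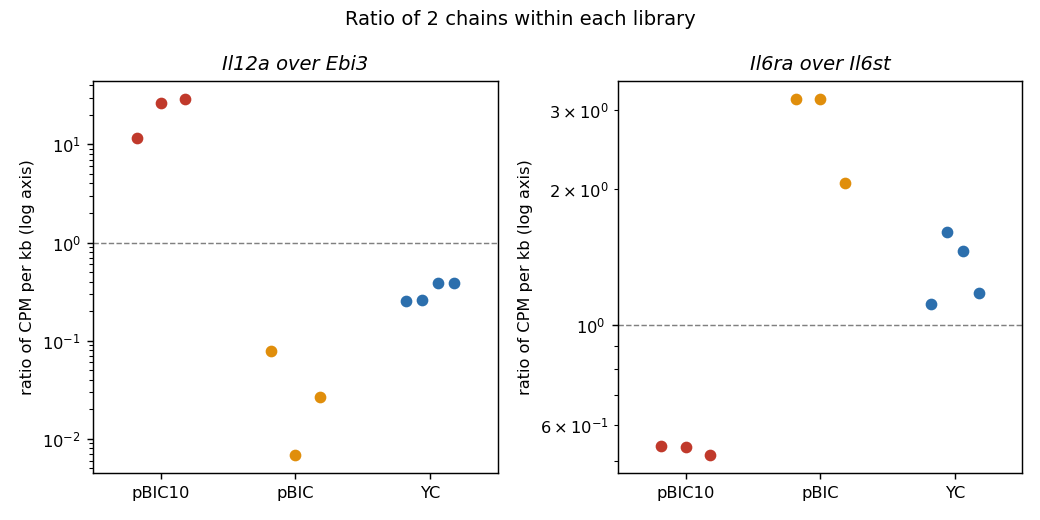
Ratio of Il12a over Ebi3 (left) and of Il6ra over Il6st (right) within each library, from CPM per kb on log axes; the dashed line marks equal levels. The 3 pBIC10 libraries lie above equality for Il12a over Ebi3 and below it for Il6ra over Il6st.

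Among the other receptor chains of the IL-12 family (Il12rb1, Il12rb2, Il23r and Il27ra; 3 of 4 tested), 1 was lower in pBIC10 against pBIC (median log2 fold change of the list 0.88), 1 was higher in pBIC against YC (median -0.16) and 0 were called in pBIC10 against YC (median 0.56). These and the list counts that follow stand beside 30.7% of all tested genes called between the lymphoma groups, 54.1% for pBIC over YC and 51.7% for pBIC10 over YC. The called chain was Il12rb1, which the receptors of IL-12 and IL-23 share. It had 19.2, 15.5 and 18.3 CPM in pBIC10 libraries, against 143.9, 138.7 and 94.0 CPM in pBIC libraries and 9.42, 15.2, 15.8 and 20.6 CPM in YC libraries. The pBIC libraries stood above all others, while pBIC10 and YC overlapped. The log2 fold change was -2.83 ± 0.27 in pBIC10 against pBIC (adjusted p = 9.89e-06) and 3.04 ± 0.24 in pBIC against YC (adjusted p = 1.42e-06). Il27ra, the IL-27 receptor chain that pairs with gp130, had means of 50.03 ± 5.06 CPM in pBIC10, 23.2 ± 15.2 CPM in pBIC and 33.9 ± 6.87 CPM in YC (SD, n = 3, 3 and 4) and was not called (adjusted p = 0.0519 in pBIC10 against pBIC).

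Other ligands and receptor chains of the wider IL-6 family, not all of which use gp130, were mostly undetected or low. Of these, 3 of 8 cytokines and 2 of 5 receptor chains were tested. Lifr, the receptor chain that pairs with gp130 for leukaemia inhibitory factor, had 610, 642 and 179 CPM in pBIC10 libraries, against 17.2, 10.1 and 21.2 CPM in pBIC libraries and 2.97, 6.22, 6.08 and 7.99 CPM in YC libraries. The 3 groups did not overlap, and the lowest pBIC10 library was the one from a male. Lifr was higher in pBIC10 than in pBIC (log2 fold change 4.88 ± 0.52, adjusted p = 4.70e-05) and than in YC (6.36 ± 0.50, adjusted p = 2.75e-06). In pBIC against YC it was higher by 1.47 ± 0.44 on the log2 scale (adjusted p = 0.0148), a call lost with limma-voom (0.0778), with no filter (0.0694) and without pBIC replicate 3 (0.0811). Its ligand genes Lif and Ctf1 were too low to test. Il11ra1, the receptor chain for interleukin-11, was lower in pBIC10 than in pBIC (-3.65 ± 0.70, adjusted p = 0.00208; -2.07 without pBIC replicate 3) and than in YC (-2.37 ± 0.66, adjusted p = 0.00977).

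Clcf1, a B cell-stimulating cytokine that signals through the ciliary neurotrophic factor receptor, Lifr and gp130, had 6.84, 7.44 and 1.49 CPM in pBIC10 libraries, against 0.643, 0.113 and 0.214 CPM in pBIC libraries and 54.0, 72.0, 73.4 and 55.2 CPM in YC libraries. The groups did not overlap, with YC highest and pBIC lowest. The log2 fold change was 3.97 ± 0.65 in pBIC10 against pBIC (adjusted p = 8.27e-04), -7.57 ± 0.66 in pBIC against YC (adjusted p = 6.19e-06) and -3.60 ± 0.50 in pBIC10 against YC (adjusted p = 1.32e-04). Without pBIC replicate 1 the changes that involve pBIC were 4.93 and -8.53. Osm, the gene of oncostatin M, was higher in pBIC10 than in YC alone of the 3 comparisons (1.17 ± 0.33, adjusted p = 0.00876). The difference between the comparisons was not tested for it.

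Of 11 kinases, STATs and feedback inhibitors of these receptors, all tested, 1 was higher and 5 lower in pBIC10 against pBIC (median log2 fold change -0.40), 2 were higher and 6 lower in pBIC against YC (median -0.58), and 1 was higher and 9 lower in pBIC10 against YC (median -1.22). Among all tested genes 15.6% were higher and 15.1% lower between the lymphoma groups, 26.4% higher and 27.7% lower for pBIC over YC, and 24.8% higher and 26.9% lower for pBIC10 over YC. Socs3, the feedback inhibitor that binds gp130, was the one higher in pBIC10 against pBIC, with 78.8, 86.6 and 22.5 CPM in pBIC10 libraries, against 7.08, 3.28 and 2.95 CPM in pBIC libraries and 36.5, 48.1, 47.7 and 56.3 CPM in YC libraries. The pBIC libraries were the lowest, and pBIC10 and YC overlapped. Its log2 fold change was 3.82 ± 0.50 in pBIC10 against pBIC (adjusted p = 1.95e-04) and -3.41 ± 0.48 in pBIC against YC (adjusted p = 1.43e-04). Socs1, a second feedback inhibitor, went the other way and was lower in pBIC10 than in pBIC (-2.36 ± 0.25, adjusted p = 2.00e-05) and than in YC (-2.28 ± 0.24, adjusted p = 9.00e-06).

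Stat3, the main transcription factor of gp130 signalling, averaged 76.3 ± 18.6 CPM in pBIC10, 183 ± 19.8 CPM in pBIC and 186 ± 14.3 CPM in YC. It was lower in pBIC10 than in pBIC (-1.26 ± 0.19, adjusted p = 3.44e-04) and than in YC (-1.29 ± 0.18, adjusted p = 9.24e-05). Stat4, which acts below the IL-12 receptor, averaged 0.571 ± 0.236 CPM in pBIC10, 7.94 ± 7.78 CPM in pBIC and 26.7 ± 5.74 CPM in YC. It was lower in pBIC10 than in pBIC (-3.79 ± 0.66, adjusted p = 0.00126; -2.63 without pBIC replicate 2), and lower in pBIC10 than in YC (-5.54 ± 0.68, adjusted p = 5.04e-05). It was lower in pBIC than in YC too (-1.75 ± 0.53, adjusted p = 0.0146). T cells also express Stat4, and of the 8 T cell markers 1 was higher and 6 lower in pBIC10 against pBIC, 0 higher and 7 lower in pBIC against YC, and 0 higher and 8 lower in pBIC10 against YC. Their sums, 40.2 to 64.2 CPM in pBIC10, 41.9 to 81.2 CPM in pBIC and 285 to 419 CPM in YC, were carried in pBIC10 by Lck (36.5 to 57.7 CPM in pBIC10, 7.66 to 25.7 CPM in pBIC and 169 to 205 CPM in YC). Cd3g lay at 0.590 to 1.13 CPM in pBIC10, 3.11 to 9.64 CPM in pBIC and 12.2 to 35.5 CPM in YC, and the part of the T cell markers in the Stat4 differences was not tested. The kinase genes Jak1 (-2.07 ± 0.17), Jak2 (-1.22 ± 0.31) and Tyk2 (-1.67 ± 0.19) were all lower in pBIC10 than in YC, and of the 3 only Tyk2 was called in pBIC10 against pBIC (-1.22 ± 0.20, adjusted p = 5.40e-04).

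**Figure D4:**
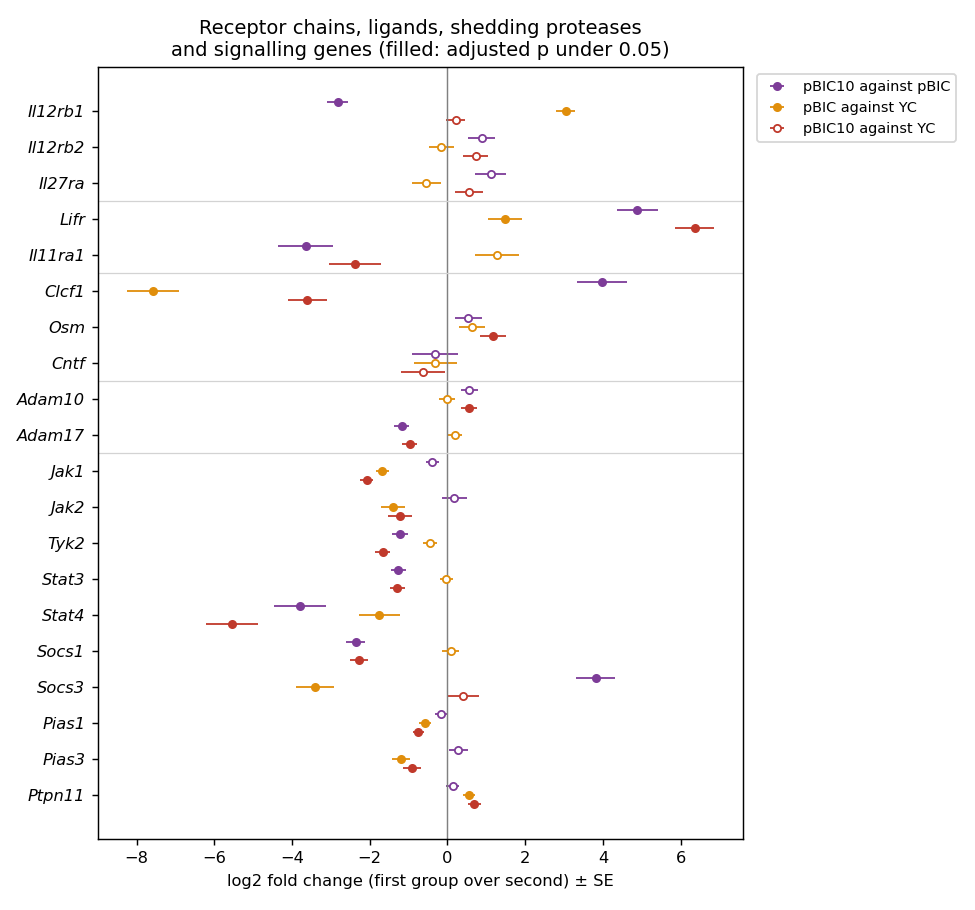
Log2 fold changes ± SE (horizontal axis) of receptor chains, gp130 ligands, shedding proteases and signalling genes in the 3 comparisons; filled points had an adjusted p under 0.05. Lifr and Socs3 lie to the right in pBIC10 against pBIC, and Il12rb1, Stat3, Stat4 and Socs1 to the left.

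Of the 2 proteases that release the IL-6 receptor from the cell surface, Adam17 was lower in pBIC10 than in pBIC (-1.18 ± 0.20, adjusted p = 6.61e-04) and than in YC (-0.97 ± 0.19, adjusted p = 7.73e-04). Adam10 was called higher in pBIC10 against YC (0.55 ± 0.21, adjusted p = 0.0377), a call lost in 10 alternatives (adjusted p up to 0.129), among them without any 1 of the pBIC10 libraries and without YC replicate 2, 3 or 4. Of 16 factors known to act on promoters of these cytokine genes, all tested, 3 were higher and 5 lower in pBIC10 against pBIC (median -0.41). In pBIC against YC, 1 was higher and 9 lower (median -0.98), and in pBIC10 against YC 0 were higher and 11 lower (median -0.84). Those 11 include Maf, with 9, 0 and 3 counts in pBIC10 libraries and 30, 11 and 4 counts in pBIC libraries. Maf could pass the count filter only through YC, so a difference from YC was built into its being tested. Irf1 and Irf8, interferon regulatory factors known to act on Il12a, Il12b and Il27 in macrophages, were both lower in pBIC10 than in pBIC (-1.63 ± 0.16, adjusted p = 1.33e-05, and -1.38 ± 0.30, adjusted p = 0.00428). The NF-kB subunit gene Rel was lower in pBIC10 than in YC (-1.83 ± 0.35, adjusted p = 0.00111) and in pBIC than in YC (-2.27 ± 0.36, adjusted p = 3.06e-04), and in pBIC10 against pBIC it was not called (0.44 ± 0.36, adjusted p = 0.387). The AP-1 genes Fos (3.23 ± 0.71, adjusted p = 0.00526) and Junb (1.23 ± 0.27, adjusted p = 0.00436) were higher in pBIC10 than in pBIC. Fos overlapped between pBIC10 and YC, while Junb lay at 485 to 574 CPM in pBIC10 and 803 to 1843 CPM in YC. Jun, also an AP-1 gene, had 79.0, 36.5 and 45.2 CPM in pBIC10 libraries, against 228, 47.3 and 215 CPM in pBIC libraries. It was lower in pBIC10 than in YC (-4.24, adjusted p = 5.52e-04).

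Of 12 known IL-6 and STAT3 response genes, 11 were tested, and 4 were higher and 3 lower in pBIC10 against pBIC (median 0.40), 3 were higher and 4 lower in pBIC against YC (median -0.10), and 3 were higher and 5 lower in pBIC10 against YC (median -0.22). The list moved in both directions. Myc, which drives growth, was higher in pBIC10 than in pBIC (1.46 ± 0.33, adjusted p = 0.00552), and so was the cyclin gene Ccnd1 (1.54 ± 0.36, adjusted p = 0.00738). The adhesion molecule gene Icam1 (-1.69 ± 0.18, adjusted p = 2.00e-05) and Bcl3, a nuclear partner of NF-kB (-0.90 ± 0.20, adjusted p = 0.00399), were lower. Socs3 and Junb stand in this list and in another of the lists above. Most of these genes also answer to signals other than IL-6.

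Genes whose levels ran most like those of the called members were ranked by Pearson r of log2 CPM over the 10 libraries, among 11737 genes, as a description. The libraries of a group share batch and origin, so the 10 points are not independent. For Il12a these were Klf10 (r = 0.984), Phf21b (0.984) and Ets2 (0.980), and Klf10 averaged 86.1 CPM in pBIC10, 12.9 CPM in pBIC and 52.3 CPM in YC. For Ebi3 they were Cacna1s (0.989), Bcl2a1a (0.989) and Clec12a (0.983), and Clec12a averaged 0.658 CPM in pBIC10, 8.88 CPM in pBIC and 26.2 CPM in YC. Bcl2a1a has near-identical copies, so its counts are uncertain. For Il27 they were Eaf2 (0.991), Flot1 (0.989) and Gngt2 (0.988). For Il6ra they were Zfp385a (0.939), Dcaf7 (0.939) and Golga1 (0.937), a looser likeness than for the other members. For Il6st, Nckap5l (0.972) and Camk2a (0.966) were among them.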

How the data were processed

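Poly(A) RNA of sorted splenic B cells was read as single-end 50 nt reads. The deposited values are whole-number read counts; featureCounts, FastQC and GRCm39 are listed in the submitters' processing notes. Not given in the sources used here are aligner, annotation, strand setting and versions. All 10 columns were matched to their samples by name, with 0 columns left over.

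Counts were filtered with filterByExpr, scaled by TMM and fitted in edgeR 4.0.16 (R 4.3.3) over all 10 libraries with 1 coefficient per group (robust quasi-likelihood, 7 residual degrees of freedom). Adjusted p-values are Benjamini-Hochberg over 17718 genes within each of 3 comparisons, and every adjusted p is edgeR's unless another tool is named. The SE is the log2 fold change divided by the square root of F. CPM are TMM-scaled; levels per kb use merged exon lengths of a GRCm38 annotation matched by symbol. A group at 0 was given a limit of 3 counts over the group. Likeness used log2 CPM (prior count 2) among genes with a mean of at least 1 CPM. The code of the fit was checked on simulated counts in which few genes changed. That check does not cover error rates in these data.

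Genes were named by rule: all members, the 4 genes the alleles act on, up to 4 called genes per list, direction and comparison with the smallest adjusted p, and the 3 genes most like each called member. Not all that qualified are given, and some genes are not reported here; Il27ra, Gcsam, Fcgr1, Cd68, Csf1r, Ccr7, Lck, Cd3g, Apobr, Gm16712, Lif, Ctf1 and the Ighv segments are named outside the rule. The members, lists and tests were chosen with earlier results of these data known. Results were recomputed with DESeq2 1.42.0 and limma-voom (limma 3.58.1), relative log expression and upper quartile factors, no filter and a stricter one, the compared pair of groups alone, a term for sex, only females, antigen receptor genes removed, and each library dropped in turn. Intervals cover counting error only. matplotlib 3.10.9 drew the figures.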

Additional observations from a re-analysis of the deposited data

Results flagged for a closer look

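In YC, Ebi3 replicate 1 (16.5 CPM) lay apart from the other 3 libraries (24.5 to 25.5 CPM): the gap made up 0.883 of the group's range. Chance flags about 1 in 20 groups, and of the 8 genes only Ebi3 was flagged in the YC group; groups of 3 were not tested.

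For 3 genes the change against YC differed between the lymphoma groups, tested as pBIC10 against pBIC in the same fit. On the log2 scale this difference was 5.82 for Il12a, -3.29 for Ebi3 and 1.61 for Il6st. The pBIC10 libraries come from another series than the pBIC and YC libraries, and batch and group cannot be told apart for them.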

How the results depend on the processing

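The count of members called in pBIC against YC was 3, and became 5 with DESeq2 and 5 without pBIC replicate 2, where Ebi3 and Il12b were added. Leaving out each library in turn gave 3 to 5 members there, 3 to 4 in pBIC10 against pBIC and 3 to 6 in pBIC10 against YC. Counts of all genes called stayed within 1.5 times the values given, at 3810 to 6052 in pBIC10 against pBIC, 8331 to 10630 in pBIC against YC and 7566 to 10241 in pBIC10 against YC. Il6st in pBIC against YC, which was not called, ran from -0.18 on the log2 scale without pBIC replicate 3 to 0.64 without pBIC replicate 2, and the cause was not tested. Il12a, Ebi3 and Il6st kept their calls and directions in pBIC10 against pBIC in all alternatives run, as did Il12a, Il27 and Il6ra in pBIC against YC and Il27, Ebi3 and Il6st in pBIC10 against YC. The kept Il27 calls against YC add no support where the filter was used, since Il27 passed it only through YC. With limma-voom the Il12a changes were 6.57 in pBIC10 against pBIC and -4.93 in pBIC against YC. No paired analysis was possible because the labels number no replicates across groups. Groups of 3 or 4 libraries, from lymphomas that share a leading heavy chain segment, and a batch that coincides with pBIC10, limit what these tests can separate; Il23a, Il12b and Il6 are further limited by counts near 0.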
